A study of Bos taurus with 8 samples.

Results

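INHA, INHBA, INHBB, FST, FSTL3 and AMH encode the subunits of inhibin and activin, the proteins that bind activin, and anti-Müllerian hormone. These 6 genes were taken by name from the 15216 gene symbols that the platform annotation gives to the array, of which 13592 had a tested probe. Each of the 6 was measured by 1 probe, and all 6 probes passed the filter on dim signals. They were studied in cultured granulosa cells, which surround the oocyte and respond to follicle-stimulating hormone (FSH). No probe, promoter or protein sequence was used here.

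Cells of the FSH group were exposed to 1 ng/ml of FSH for the final 4 h of 48 h in culture, and cells of the control group had none, per the labels. Both groups were bovine cells from dissected follicles (2 to 6 mm, slaughterhouse ovaries), passed through a mesh of 104 µm. The labels give n = 4 for each biological replicate and 8 biological replicates without saying what was counted, so a replicate may be a pool, and they do not say whether FSH and control cultures of 1 number shared ovaries. RNA was amplified, and each of 8 arrays took RNA of both groups in 2 colours, with 2 arrays per replicate number and the dyes exchanged between them. This gave 4 FSH and 4 control replicates. The p-values of the fit over replicate means measure the spread between these 4 replicates, which may be technical, and the number of arrays limits the precision. The culture labelled control of replicate 3 stood near the FSH culture of its number for the genes NR4A1 and TRIB2, as described with FST. This did not hold for every gene. Results are also given without replicate 3. Whether that control culture had been exposed to FSH was not tested, and what a ratio of replicate 3 compares is uncertain.

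Inhibin joins the alpha subunit INHA to a beta subunit, INHBA for inhibin A or INHBB for inhibin B, and restrains FSH release by the pituitary. Beta subunits joined to each other form the activins, which act on the follicle through SMAD2 and SMAD3. Follistatin, the product of FST, and its relative FSTL3 bind activin and keep it from its receptors. AMH is made by granulosa cells of small growing follicles, where in the mouse it lowers the response to FSH.

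The question was how transcripts of this system differ after a short exposure to FSH. INHBB was higher with FSH in every replicate, by 1.65-fold on average. FSTL3 was also higher in every replicate, by 1.33-fold. FST was lower in replicates 1, 2 and 4 and not in replicate 3, with a mean fold of 0.591. INHA and INHBA were among the brightest spots, where ratios may be compressed, and AMH showed no common direction. None of these differences passed the test over the 4 replicate means. In a fit of all 8 arrays with a replicate block and a dye term, INHBB was the only one of the 6 to pass, and it did not pass with the block alone.

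**Figure D1:**
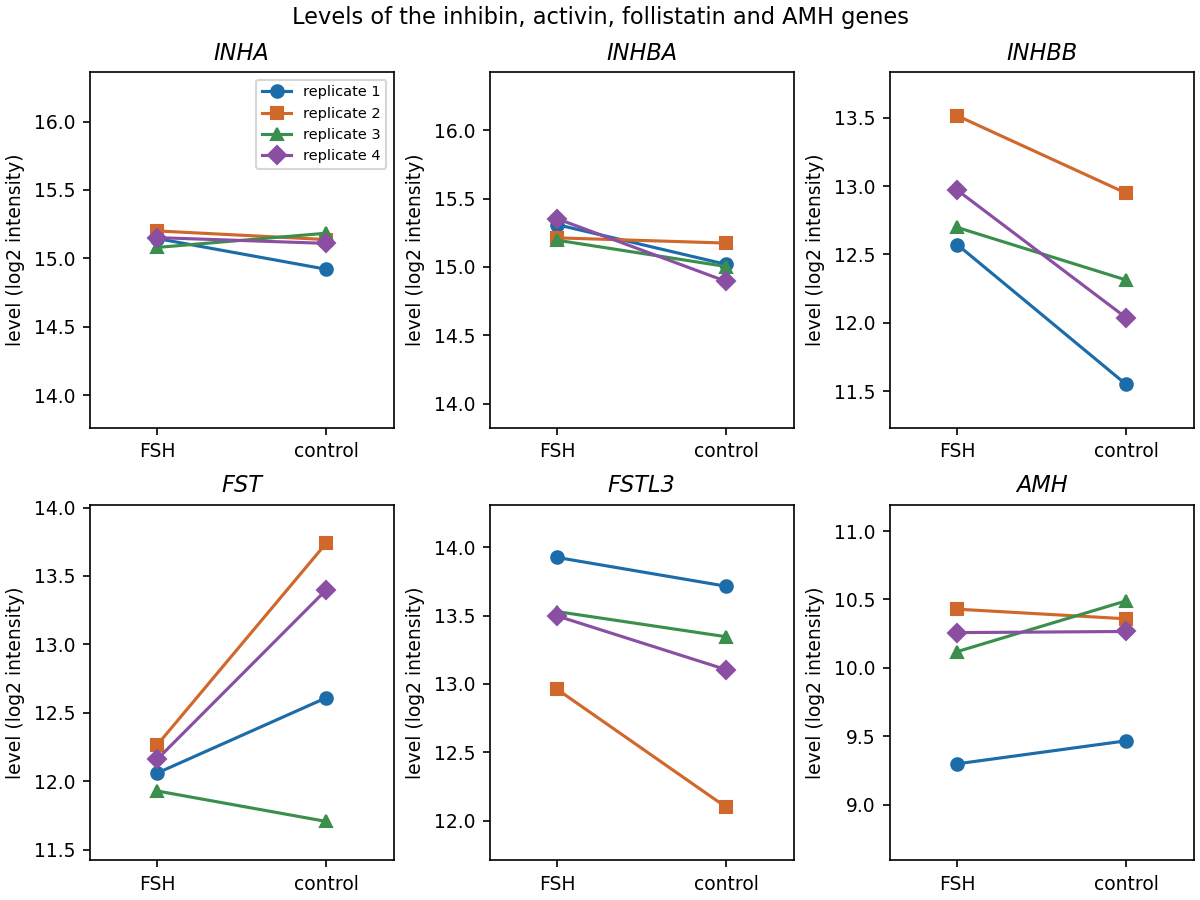
Level of each gene (log2 intensity, mean of the arrays of a replicate) in FSH and control cultures with a line for each of the 4 replicates, on axes of equal span. The lines of INHBB and FSTL3 run lower towards control in all 4 replicates, whereas the FST levels lie close together with FSH and far apart in control.

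Among the ligand subunits, INHBB had levels of 12.57, 13.51, 12.70 and 12.97 (log2 intensity) in FSH replicates 1 to 4, against 11.55, 12.95, 12.31 and 12.04 in the control replicates. Each FSH level lay above the control level of the same number, but the groups overlapped, since control replicate 2 stood above FSH replicates 1 and 3. The mean was 12.94 ± 0.42 with FSH and 12.21 ± 0.58 in control (SD, n = 4 each). The ratio of FSH over control was 2.03-fold, 1.48-fold, 1.31-fold and 1.91-fold in replicates 1 to 4. On the log2 scale it averaged 0.73 ± 0.13 (SE), with a 95% interval of 0.40 to 1.05. With limma over the replicate means the adjusted p was 0.224. In the fit of 8 arrays with a replicate block and a dye term, INHBB rose by 0.73 ± 0.11 (adjusted p = 0.0131). With the replicate block and no dye term it was 0.73 ± 0.22 and did not pass (adjusted p = 0.106), so the call depends on the dye term. Both blocked fits use all 8 arrays rather than 4 replicate means, with 1 within-replicate correlation for all probes. Their p-values therefore do not measure the spread between replicates alone. For a gene whose arrays of 1 number lie close together, as for FST, the SE may be too small.

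The INHBB spot was brighter in Cy3 than in Cy5, whichever culture carried the dye. Its log2 ratio averaged 1.24 on the 4 arrays with FSH in Cy3 and 0.22 on the 4 with FSH in Cy5. Compared within 1 dye this offset drops out. In Cy3 the raw intensity was 8023, 13848, 8583 and 10369 in FSH replicates 1 to 4, against 4227, 10832, 6292 and 5510 in control. In Cy5 it was 5076, 9015, 5280 and 5839 with FSH, against 2575, 6012, 3967 and 3949 in control. FSH was thus higher in 8 of 8 comparisons within a dye, while the ratio was above 0 on 6 of 8 arrays, the exceptions being replicates 2 and 3 with FSH in Cy5, at -0.017 and -0.14. Such a comparison sets arrays of different slides against each other, as all arrays with FSH in Cy5 carry 1 slide name and all with FSH in Cy3 another.

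INHBA, the other beta subunit, had levels of 15.31, 15.21, 15.20 and 15.35 in FSH replicates 1 to 4, against 15.02, 15.17, 15.003 and 14.89 in control. It was the only member of the 6 whose groups did not overlap. The log2 ratio was 0.29, 0.038, 0.19 and 0.46 in replicates 1 to 4 and averaged 0.24 ± 0.079, with a 95% interval of 0.039 to 0.45 (adjusted p = 0.3495 with limma). Its direction turned with the dyes, with a mean of 0.58 on the arrays with FSH in Cy5 and -0.091 on those with FSH in Cy3, and 5 of 8 arrays were above 0.

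These ratios rest on spots at the edge of what the scanner could measure. In Cy5 the INHBA spot stood at 94.5% to 99.4% of the brightest gene spot of its array, and its raw intensity covered only 40061 to 41911 over FSH and control alike. In 2 of these 8 Cy5 values, that of FSH replicate 2 and that of control replicate 4, the median pixel was saturated. A difference in INHBA was therefore not detectable in Cy5. In Cy3 the raw intensity was 38272, 35416, 38351 and 38838 in FSH replicates 1 to 4, against 28224, 35890, 24891 and 22368 in control. With FSH the spot was the brightest of all gene spots of the Cy3 channel in replicates 1 and 4, while in control replicate 4 it reached 58.9% of the brightest. The log2 level in Cy3, scaled between arrays, was higher with FSH by 0.50, 0.034, 0.47 and 0.75 in replicates 1 to 4, with a mean of 0.44 ± 0.13 (SE). This fit of the Cy3 levels alone was chosen after seeing the data and did not pass either (adjusted p = 0.328 with limma).

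**Figure D2:**
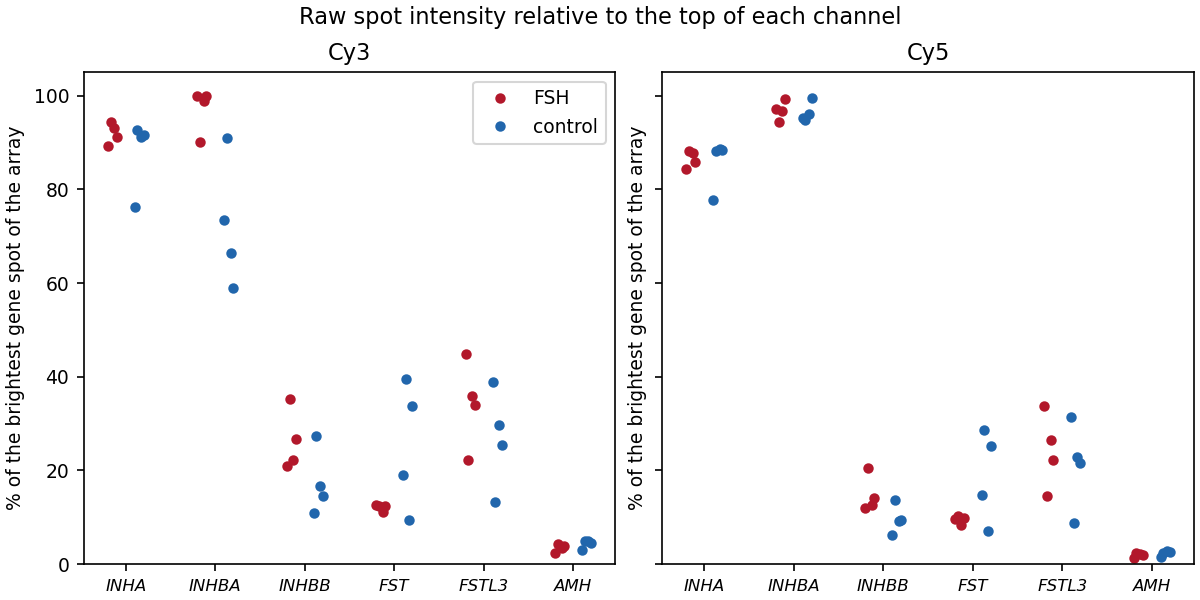
Raw intensity of each member's spot as a percentage of the brightest gene spot of the same array and channel, in FSH (red) and control (blue) cultures, for Cy3 (left) and Cy5 (right), with 4 arrays per group and dye. INHA and INHBA crowd at the top, with INHBA in Cy5 at 94.5% to 99.4%, while the other 4 genes stay below 45%.

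INHA, the alpha subunit without which no inhibin forms, had levels of 15.14, 15.20, 15.08 and 15.15 in FSH replicates 1 to 4, against 14.92, 15.14, 15.18 and 15.11 in control. The groups overlapped, and the lowest value was that of control replicate 1. The log2 ratio was 0.22, 0.063, -0.10 and 0.042 and averaged 0.056 ± 0.065, with a 95% interval of -0.11 to 0.23 (adjusted p = 0.798 with limma). No INHA spot was saturated by its median pixel, but the raw intensity reached 76.2% to 94.5% of the brightest gene spot in Cy3 and 77.7% to 88.7% in Cy5. Between 43 and 223 gene spots were brighter in a channel. The interval covers the spread of these bright readings, which may be compressed, and does not show that the transcript was unaffected.

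**Figure D3:**
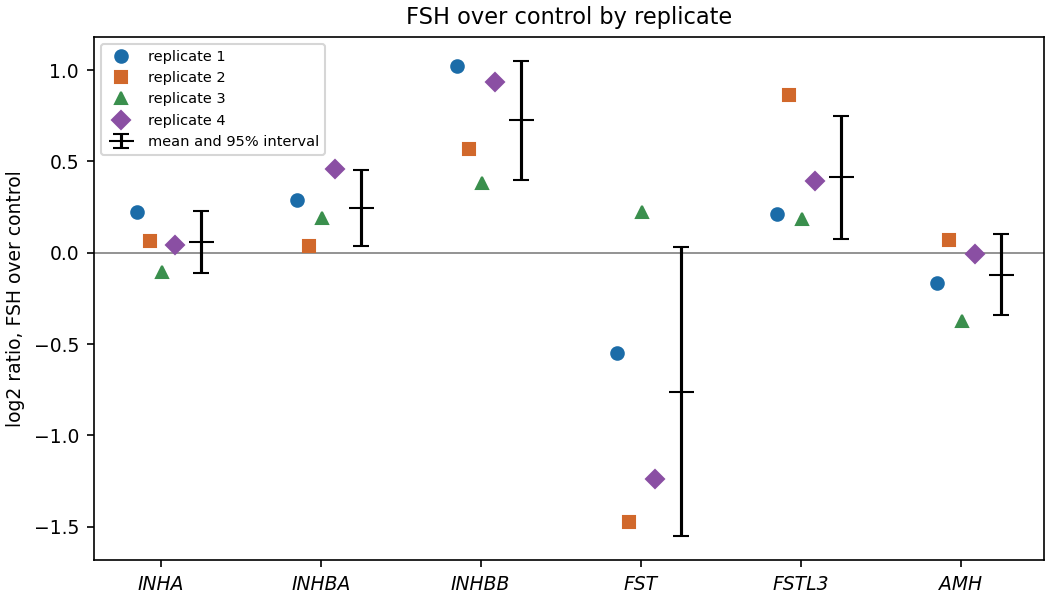
Log2 ratio of FSH over control in each of the 4 replicates (coloured points), with the mean and 95% interval of limma (black) beside them. All 4 points lie above 0 for INHBA, INHBB and FSTL3, and the FST point of replicate 3 lies on the other side of 0 from its other 3 points.

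Of the activin-binding proteins, FST had levels of 12.06, 12.27, 11.93 and 12.16 in FSH replicates 1 to 4, against 12.61, 13.74, 11.71 and 13.40 in control. The FSH levels lay within 0.34 log2 units of each other, while the control levels spread over 2.03. Control replicates 1, 2 and 4 stood above every FSH replicate, and control replicate 3 below every one of them. The log2 ratio was -0.55, -1.47, 0.22 and -1.24 in replicates 1 to 4 and averaged -0.76 ± 0.30, with a 95% interval of -1.55 to 0.033. FST did not pass over the replicate means (adjusted p = 0.427 with limma) or with the replicate block and dye term (adjusted p = 0.107).

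Both dyes gave the same picture for FST. Arrays of the same number differed by 0.073 to 0.17 in its log2 ratio, against an SD of 0.76 between replicates. The raw Cy3 intensity was 4815, 4897, 4284 and 4803 in FSH replicates 1 to 4, against 7288, 15621, 3524 and 12807 in control. In Cy5 it was 4070, 4575, 3507 and 4090 with FSH, against 6223, 12482, 3040 and 10604 in control.

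Replicate 3 stood apart for NR4A1 and TRIB2, which were chosen after their values were seen, but not for every gene. Among the genes described below, the log2 ratio in replicate 3 was 0.76 for NR5A2 by its brightest probe and -0.45 for GATA4. For BAMBI it was -0.082. NR4A1, an immediate-early nuclear receptor, had log2 ratios of 3.22, 4.37, 0.13 and 4.10 in replicates 1 to 4. TRIB2, a pseudokinase, had -1.80, -3.91, -0.075 and -2.91. In control replicate 3 the level of NR4A1 was 14.88, against 15.01 in FSH replicate 3, while the other controls lay between 10.91 and 11.24. For TRIB2 it was 10.03 in control replicate 3, against 9.96 in FSH replicate 3, with the other controls between 12.82 and 14.67. The part of this in the FST result was not tested. With replicate 3 left out of the blocked fit, FST was at -1.09 ± 0.16 (adjusted p = 0.0102) and INHBB at 0.84 ± 0.10 (adjusted p = 0.00641). That choice depends on the outcome, so the lower p-values are no independent test. Over the replicate means without replicate 3, neither FST (adjusted p = 0.145 with limma) nor INHBB (adjusted p = 0.111) passed. The other means were then 0.49 for FSTL3, 0.26 for INHBA, 0.11 for INHA and -0.035 for AMH, and none passed. In replicate 3 the mean log2 ratio of INHBB was 0.38, the lowest of its 4, from arrays at -0.14 with FSH in Cy5 and 0.91 with FSH in Cy3.

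FSTL3, which binds activin but lacks the heparin-binding ability of follistatin, had levels of 13.92, 12.96, 13.53 and 13.50 in FSH replicates 1 to 4, against 13.71, 12.10, 13.35 and 13.10 in control. The replicates differed from each other more than FSH from control, and replicate 2 was the lowest in both groups. Within each number, FSH was the higher. The log2 ratio was 0.21, 0.86, 0.18 and 0.39 and averaged 0.41 ± 0.13, with a 95% interval of 0.074 to 0.75. It was above 0 on 8 of 8 arrays and in 8 of 8 comparisons within a dye. The adjusted p was 0.341 with limma over the replicate means and 0.0690 with the replicate block and dye term. Replicate 2 carried much of the mean, which was 0.26 without it.

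AMH had levels of 9.30, 10.43, 10.12 and 10.26 in FSH replicates 1 to 4, against 9.47, 10.36, 10.49 and 10.27 in control. Both cultures of replicate 1 stood below all others, and the SD between replicates, 0.50 with FSH and 0.46 in control, was larger than the difference with FSH in any of them. The log2 ratio was -0.17, 0.070, -0.37 and -0.0084 and averaged -0.12 ± 0.086, with a 95% interval of -0.34 to 0.10 (adjusted p = 0.654 with limma). AMH was the dimmest of the 6 spots but stood 4.18 to 12.3 times brighter than the 95th percentile of negative control spots, over all channels. Its ratio averaged -0.49 on the arrays with FSH in Cy5 and 0.25 on those with FSH in Cy3, so its mean sign differed between the orientations. Within a dye, FSH was the higher in 2 of 8 comparisons.

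**Figure D4:**
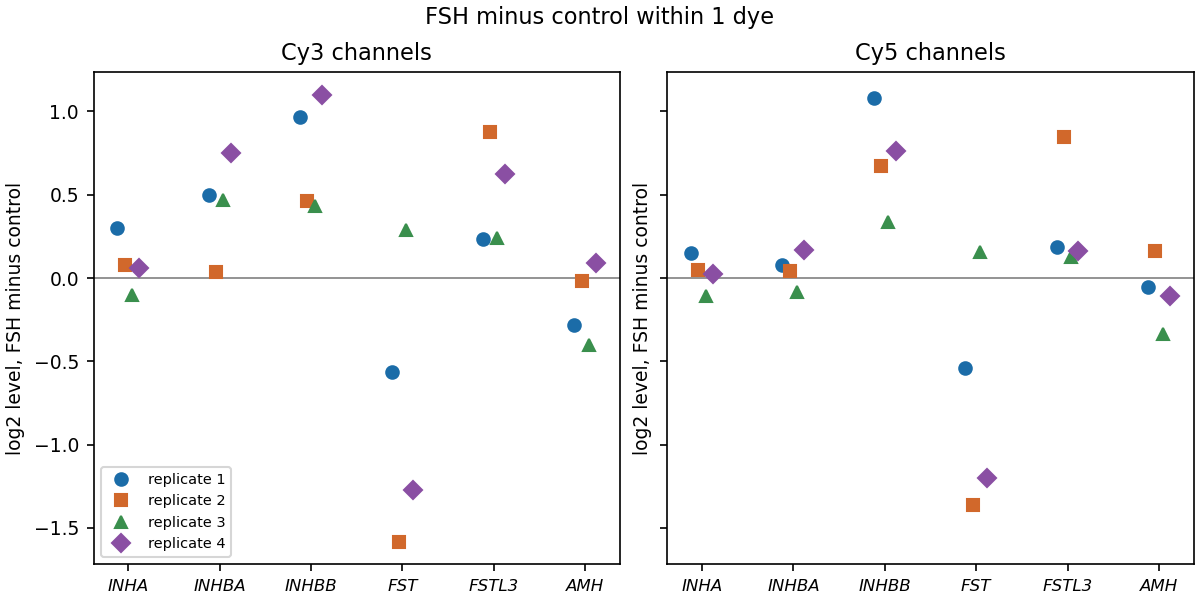
Log2 level in FSH minus log2 level in control of the same replicate number, compared within Cy3 (left) and within Cy5 (right), after scaling between arrays. INHBB and FSTL3 are above 0 in all 4 replicates of both dyes, FST is below 0 except in replicate 3, and INHBA lies between 0.034 and 0.75 in Cy3 but near 0 in Cy5.

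Counted over the 6 genes, 0 passed with limma over the replicate means at an adjusted p under 0.05, where 0 of all 36531 tested probes (0%) did so and 4441 had an unadjusted p under 0.05. With the replicate block and dye term 1 of the 6 passed, INHBB, beside 3.41% of all tested probes. The sign of the ratio was the same in all 4 replicates for 3 of the 6, INHBA, INHBB and FSTL3, beside 20.3% of all tested probes. All 8 comparisons within a dye had 1 sign for INHBB and FSTL3, beside 6.9% of all tested probes. Levels of FSH and control did not overlap for 1 of the 6, INHBA, beside 2.98%. The central 90% of log2 ratios over all tested probes lay between -0.28 and 0.33, with a median of -0.0017. INHBB, FST and FSTL3 were outside this band and INHA, INHBA and AMH inside it. The band was not matched for level, as all tested probes had a median log2 level of 7.35, against 10.09 to 15.15 for the 6.

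Within a replicate, the ratios of the members could be set against each other, although levels of different probes could not. Of the 15 pairs of members, none was tested. The log2 ratio of INHBB exceeded that of FST by 1.57, 2.04, 0.16 and 2.17 in replicates 1 to 4. INHBB thus stood above FST in 4 of 4 replicates, by least in replicate 3. Against AMH, the INHBB ratio was higher by 1.19, 0.50, 0.76 and 0.94. FST and FSTL3, the pair of activin-binding proteins, differed by -0.76, -2.33, 0.039 and -1.63, with FST the lower except in replicate 3.

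Genes that act with the 6 were described from a list of receptors, SMAD proteins, convertases and regulators. Of 40 genes listed, 38 had a probe and 35 a probe that passed the filter, and the brightest probe stood for each gene. None of the 35 passed with limma over the replicate means, and an unadjusted p under 0.05 was reached by 7 with a higher and 1 with a lower level, which is 22.9% of the 35, beside 12.2% of all tested probes. With the replicate block and dye term 1 rose and 0 fell, which is 2.86% of the 35, beside 3.41% of all tested probes. The median log2 ratio was 0.0039 and 18 of 35 were above 0, beside a median of -0.0017 and 49.2% above 0 over all tested probes. In bulk RNA, fewer cells of a type and less RNA per cell cannot be told apart.

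**Figure D5:**
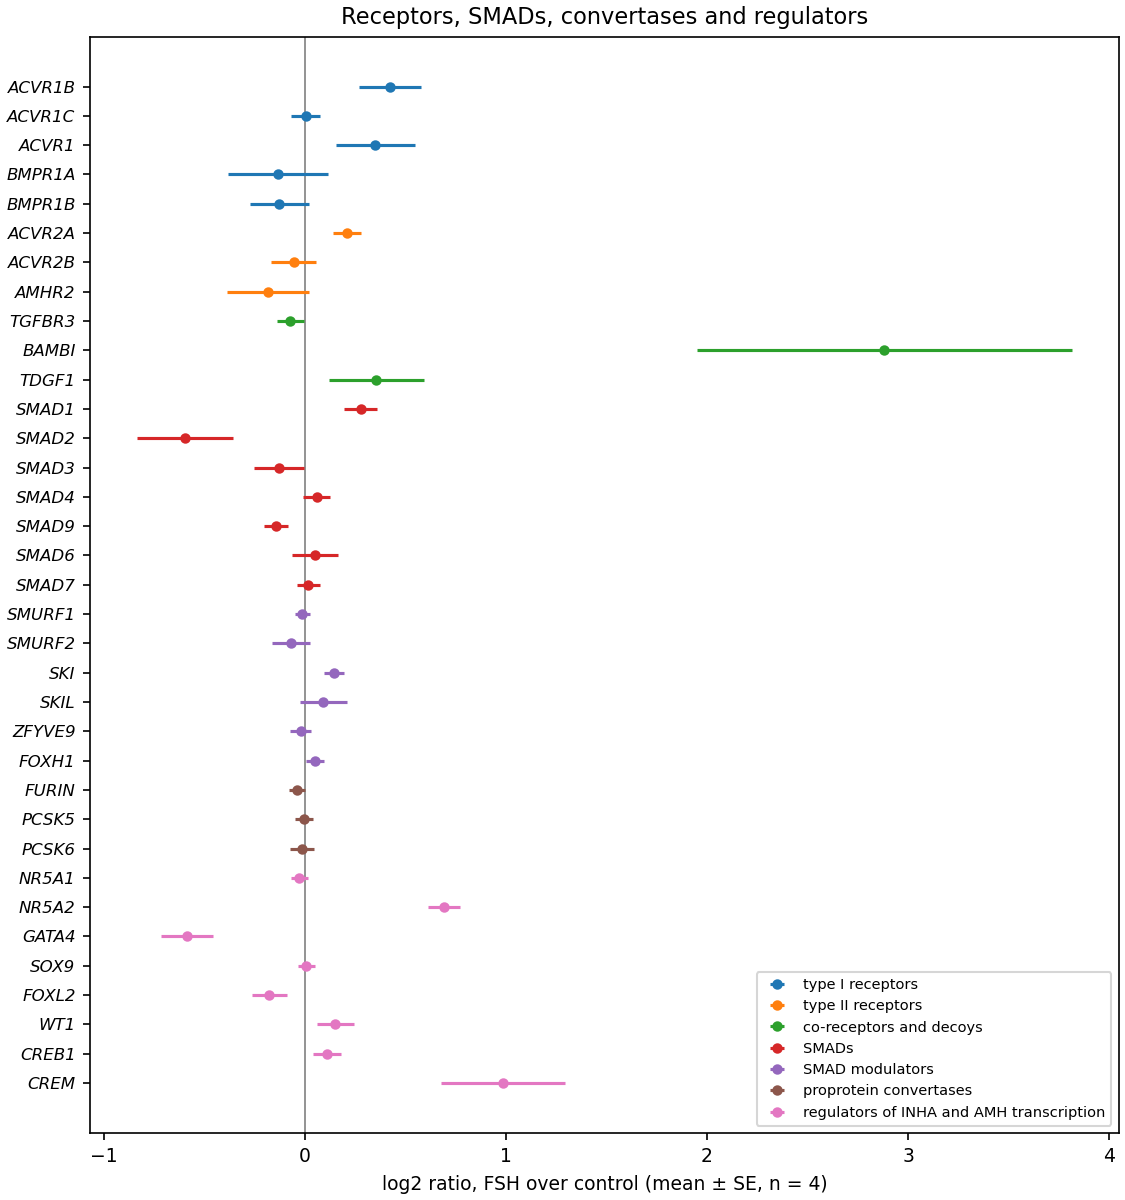
Log2 ratio of FSH over control (mean ± SE, n = 4 replicates) for the 35 measured pathway genes, coloured by role. Most lie near 0, with BAMBI and CREM above the rest and SMAD2 and GATA4 the lowest.

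Among type I receptors, which phosphorylate SMADs, ACVR1B, the main activin receptor of this type, had log2 ratios of 0.46, 0.81, -0.090 and 0.51 in replicates 1 to 4 (mean 0.42 ± 0.15, adjusted p = 0.389 with limma). ACVR1, a BMP and AMH receptor, averaged 0.35 ± 0.20, with a second, dim probe at -0.091 (mean log2 level 6.90). Of the 5 receptors of this type 3 were above 0. Among the 3 type II receptors, which bind the ligand first, ACVR2A averaged 0.21 ± 0.070 by its brightest probe and -0.16 by both others. Those others were dim, with mean log2 levels of 7.09 and 6.90. AMHR2, the receptor of AMH, averaged -0.18 ± 0.20 and ran from -0.87 in replicate 2 to 0.34 in replicate 3. Its spot was dim, at a mean log2 level of 7.27.

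The co-receptors and decoys held the widest difference. BAMBI, a decoy that lacks a kinase domain and dampens activin and TGF-beta signals, had log2 ratios of 2.07, 4.94, -0.082 and 4.60 in replicates 1 to 4 (mean 2.88 ± 0.93, adjusted p = 0.3495 with limma and 0.0560 with the replicate block and dye term). Its other probes stood at 0.51 and 2.36, at mean log2 levels of 7.27 and 9.72. In replicate 3 neither BAMBI nor FST kept the direction of its other replicates, with FST at 0.22. TDGF1, a co-receptor of nodal, averaged 0.36 ± 0.24 at a dim spot, with a second probe at 0.028. TGFBR3, the betaglycan that lets inhibin compete with activin, was at -0.072 ± 0.068 and was the third of the 3 measured in this group.

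Of 7 measured SMADs, 4 were above 0. SMAD2, which carries the activin signal, had ratios of -0.48, -1.31, 0.13 and -0.72 by its brightest probe (mean -0.60 ± 0.24, adjusted p = 0.427 with limma). Its other probe, dim at a mean log2 level of 7.13, stood at -0.065. SMAD1, which carries AMH and BMP signals, was above 0 in all 4 replicates, at 0.28 ± 0.081 on average (adjusted p = 0.321). The 6 modulators of SMADs ranged from -0.071 to 0.15. SKI, a co-repressor, averaged 0.15 ± 0.050 by its brightest probe, with others at -0.072 and 0.29 (mean log2 levels 7.08 and 8.28). FOXH1, a SMAD partner on DNA, averaged 0.050 ± 0.045 at a dim spot (mean log2 level 6.90). The 3 convertases, which cut the precursors of these ligands, lay between -0.039 and -0.0043, with FURIN at -0.039 ± 0.039 and PCSK6 at -0.015 ± 0.060. Their spots were dim, with mean log2 levels of 6.85 to 7.15 beside a median of 7.35 over all tested probes, so a difference may not have been detectable.

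Of 8 measured regulators of INHA and AMH transcription, NR5A2, an orphan receptor of steroid-producing cells, rose in the fit with the replicate block and dye term (0.69 ± 0.080 over the replicate means, adjusted p = 0.0104 in the blocked fit). Its other probes stood at -0.097 and -0.18, at mean log2 levels of 7.41 and 10.89, against 12.27 for the brightest. The probe at -0.097 was dim, so the disagreement rests on the probe at -0.18. GATA4, a factor of granulosa identity that acts on the INHA and AMH promoters, was below 0 in every replicate, at -0.30, -0.57, -0.45 and -1.02 (mean -0.59 ± 0.13, adjusted p = 0.269 with limma and 0.0595 in the blocked fit). CREM had log2 ratios of 1.06, 1.57, -0.12 and 1.43 in replicates 1 to 4 (mean 0.98 ± 0.31, adjusted p = 0.339 with limma). By this probe it was above the negative controls in 8 of 8 FSH and 5 of 8 control channels. Its other tested probe, at a dim spot, stood at -0.0036.

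By likeness of level, each gene was set against the 14122 other named probes that were above background in both channels of all arrays, over 8 levels, which are 4 replicates with and without FSH. FSH and control levels of a number share their arrays, and the nearest genes were picked from 14122 probes over only 8 points. The correlations therefore only describe these levels. INHBB was most like VBP1 (Pearson r = 0.964), SNAPC1 (0.959) and ANKS3 (0.952). FST was most like ZFAND1 (0.993), KIF4A (0.987) and LRRC45 (0.978). Like FST, these 3 were lower with FSH in replicates 1, 2 and 4 and not in replicate 3. They were chosen for likeness over the same levels, so this adds no support. For FST, 1.35% of these probes had an r above 0.9, the largest share of the 6 genes, and for INHBA 0.050%, the smallest. FSTL3 was most like FMNL3 (0.995), CSTB (0.979) and STAR (0.978), the carrier of cholesterol into mitochondria. AMH was closest to FMR1NB (0.986), ADIPOR1 (0.971) and ITGB3BP (0.965). The levels of INHA and INHBA may be compressed. Their nearest genes were SERPINE2 (0.971), MIS18A (0.948) and PFDN6 (0.944) for INHA and FADS6 (0.972), BSPRY (0.938) and INA (0.920) for INHBA.

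Marker genes were described for the labelled cell type, but detection alone cannot decide it. Of the 36531 tested probes, 25814 were above the negative controls in both channels on all arrays. FSHR, CYP19A1, HSD17B1 and GJA1, of the granulosa list, were above the negative controls in all 16 channels. At dim spots, AMHR2 was above them in 7 of 8 FSH and 8 of 8 control channels, and FOXL2 in 5 of 8 FSH and 7 of 8 control channels. Of the granulosa list 2 of 6 markers averaged above 0, with a median of -0.13. Of the theca list, INSL3 and NR2F2 were above the negative controls in all 16 channels, CYP17A1 in 7 of 8 FSH and 8 of 8 control channels, and LHCGR in 2 of 8 FSH and 2 of 8 control channels. The mean level of the theca list was 7.17 to 7.42 in FSH replicates and 7.29 to 7.47 in controls. Stromal markers differed in brightness, with mean log2 levels of 13.79 for LUM, 11.57 for PDGFRA by its brightest probe, 9.93 for DCN and 7.68 for COL1A1. All 4 of them averaged above 0 with FSH, between 0.029 and 0.43, and the mean level of their list was 10.61 to 11.64 in FSH replicates and 9.99 to 11.28 in controls. Of the measured markers of other cells, 2 of 4 were above 0 for theca, 2 of 3 for endothelium, 2 of 3 for smooth muscle, 3 of 4 for immune cells, 1 of 2 for erythrocytes and 2 of 3 for oocytes. PECAM1, ALAS2 and GDF9, of endothelium, erythrocytes and oocytes, did not pass the filter. VWF and CDH5 of endothelium, CNN1 of smooth muscle and PTPRC and CD68 of immune cells were above the negative controls in all 16 channels. So were HBA of erythrocytes and ZP3 and BMP15 of oocytes, while KDR, MYH11, DES, CD14, LYZ, HBB and DAZL were not. None of the marker genes passed over the replicate means, and in the blocked fit 1 rose, CYP19A1, the aromatase of granulosa cells. This was by its brightest probe, while its other probes stood at 0.042 and 0.32 and did not pass. Those probes were dim, with mean log2 levels of 6.96 and 7.245. KDR, of endothelium, had the largest mean log2 ratio of the marker genes, 0.81 ± 0.27, and passed neither fit. KDR had ratios of 0.81, 1.64, 0.0024 and 0.76 in replicates 1 to 4. It was above the negative controls in 8 of 8 FSH and 3 of 8 control channels. The part of other cells in the values of the 6 genes was not tested.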

How the data were processed

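RNA of FSH-treated and control granulosa cells was measured on 8 two-colour arrays. The authors deposited the intensity of each spot and its surroundings per channel, without background subtraction or normalisation per the file headers. Scanner and image software are not given in the sources used here. Of 45220 spots, 43794 were gene probes and 21790 of these had a symbol in the platform annotation, updated through RefSeq names (ARS-UCD2.0). Mean spot intensities were corrected by normexp on the median background (offset 50) and log2 ratios by loess with limma 3.58.1 (R 4.3.3). Each ratio was given as FSH over control, arrays of 1 number were averaged, and levels were scaled by Aquantile. Probes above the 95th percentile of 153 negative control spots in 1 channel on at least 4 arrays were tested (36531) with lmFit and eBayes against 0 (two-sided), adjusted over these probes by Benjamini-Hochberg at a threshold of 0.05. SEs and 95% intervals are those of limma. The negative controls were exceeded by 71.4% to 84.2% of gene probes per channel, and 0 to 17 gene spots of an array had a saturated median pixel.

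Replicate numbers and a design in dye swap give the pairing of arrays. Ratios of arrays of the same number correlated at 0.352 to 0.610, those of different number at -0.398 to 0.285 with opposite and 0.143 to 0.715 with the same dye orientation. The blocked fits used duplicateCorrelation, with a correlation of 0.720 within replicates with a dye term and 0.175 without one. The functions were tested on simulated arrays with known effects. The alternatives were other background, normalisation, filter, channel and replicate choices. The members and the gene lists were chosen with earlier results of these data known. All probes of the 6 genes are given, with, per role of the pathway list, the 2 genes or fewer that had the lowest p, and 3 genes most like each member. TGFBR3L and GATA6 had no probe of that name, and INHBC, INHBE and SMAD5 did not pass the filter. CREM, TGFBR3, NR4A1 and TRIB2 lie outside this rule and were chosen after their values were seen. The promoter and protein comparison planned for the members was not made, since no sequence table was used here, and the series-wide ratio table was not used. Figures were drawn with Python 3.11.15, pandas 2.3.3 and matplotlib 3.10.9.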

Additional observations from a re-analysis of the deposited data

How the results depend on the processing

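Over all tested probes 0 passed in the fit of 4 replicate means, and 0 in every alternative but 5. With the replicate block 1244 passed with a dye term, 1426 without one, and 2610 with the dye term and replicate 3 left out. The arrays with FSH in Cy5 alone gave 1975 and those with FSH in Cy3 alone 409, where dye and treatment cannot be told apart. On the arrays with FSH in Cy3 alone, the log2 ratio turned to -0.0084 for INHA, -0.091 for INHBA and 0.25 for AMH, and INHBB became a call at 1.24. On those with FSH in Cy5 alone, AMH became a call at -0.49. INHBB was also a call at 0.73 with the replicate block and dye term and at 0.84 with replicate 3 left out of it, where FST was one at -1.09. With the replicate block and no dye term the INHBB call was lost (adjusted p = 0.106), and none of the 6 passed. Leaving out 1 replicate gave 0.63 to 0.84 for INHBB, -1.09 to -0.52 for FST and 0.26 to 0.49 for FSTL3, with no call. It gave 0.17 to 0.31 for INHBA, 0.00045 (without replicate 1) to 0.11 (without replicate 3) for INHA and -0.18 (without replicate 2) to -0.035 (without replicate 3) for AMH, also with no call. FSTL3 kept its sign and its side of the threshold in all 20 alternatives, at 0.23 to 0.59. The mean over probes of a gene was not run, as each member has 1 probe. The fits of Cy3 levels alone and of Cy5 levels alone were added after seeing the data. Signal may limit INHA and INHBA from above, since differences between very bright spots can be understated. How far this held for INHA was not tested.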
